A study of Mus musculus with 54 samples.

Results

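The libraries described here are those of repopulated macrophages of the mouse brain at rest, 9 of the 54 libraries of the series. They were chosen by their labels as all libraries of the reporter cohort given BLZ945 followed by PBS. The 9 libraries came from 3 mice, numbered 174, 175 and 177, each of which gave 1 library of microglia (MG) and 2 libraries of subdural CNS-associated macrophages (sdCAMs), so that 6 sdCAM libraries were set against 3 MG libraries from the same animals. Every group shared the genotype Ccr2CreERT2/CreERT2:R26tdT/tdT, BLZ945, tamoxifen and PBS. BLZ945, an inhibitor of the receptor CSF1R on which macrophages depend, had depleted both populations. Then 2 mg tamoxifen followed at 0, 2 and 4 days after treatment, and PBS was injected 8 weeks after treatment ended and 12 h before perfusion. The mice were young adults, and the tissue was brain without choroid plexus. In this genotype tamoxifen switches on tdTomato (tdT) in cells that express Ccr2 at that time. The tdT+ sdCAMs thus descend from cells that had expressed Ccr2 while tamoxifen was active. The tdT- sdCAMs are the remainder of the gate, which can also hold cells of that descent that escaped recombination. The sdCAMs were sorted on CD206, the protein made from Mrc1, so that gene is no finding here. The sdCAM gate holds macrophages of both the leptomeninges and the perivascular space.

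Microglia live within the brain tissue and keep a distinct identity that depends on TGF-beta signalling and on the transcription factor SALL1. Macrophages at the borders of the brain sit along vessels and in the meninges, take up material from blood and cerebrospinal fluid through scavenger and lectin receptors, and in part present antigen on MHC class II. After depletion, microglia regrow mainly from surviving microglia, whereas border macrophages can also be replaced from monocytes, which use CCR2 to leave the bone marrow. The comparison asked how far the populations differ once the empty niches have filled again. Levels are given as CPM, the counts of a gene relative to the scaled total of its library. MG values always stand in the order of mice 174, 175 and 177, and sdCAM values as the lowest and highest of the 6 libraries with their median. A positive log2 fold change means a higher level in sdCAMs, and ± is the standard error for fold changes and the SD for levels. A gene was called when its adjusted p was under 0.05 and its log2 fold change exceeded 1 in either direction. The p-values are those of edgeR's quasi-likelihood test with the mouse as a block, adjusted by Benjamini-Hochberg for every gene in the fit.

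Of 11600 genes tested, 506 (4.36%) were higher and 420 (3.62%) lower in repopulated sdCAMs than in repopulated MG. These percentages are the background for every count of list members below. Without the MG library of mouse 175, 856 of 12320 genes were higher (6.95%) and 516 lower (4.19%). The smaller fit shared 493 of the 506 higher and 350 of the 420 lower genes. It lost 13 higher and 70 lower calls and gained 363 and 166. Without any other single library the calls numbered 466 (MG of mouse 174) to 604 (MG of mouse 177), and without all libraries of mouse 174 or 177 they numbered 121 or 155. With the tdT+ and tdT- counts summed per mouse, which sets 3 libraries against 3, 40 of 11422 genes were higher and 33 lower. The median log2 fold change over all genes was 0.18 with all libraries. The libraries held between 8652557 and 10623650 counts each, and a library without a count for a gene allowed a level of up to 0.28 to 0.35 CPM (3 counts, counting error only). With the mouse as a block, the tests measure how the differences between libraries of the same mouse vary over these 3 animals. The 2 sdCAM libraries of a mouse enter the fit as separate libraries but are not separate animals.

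**Figure D1:**
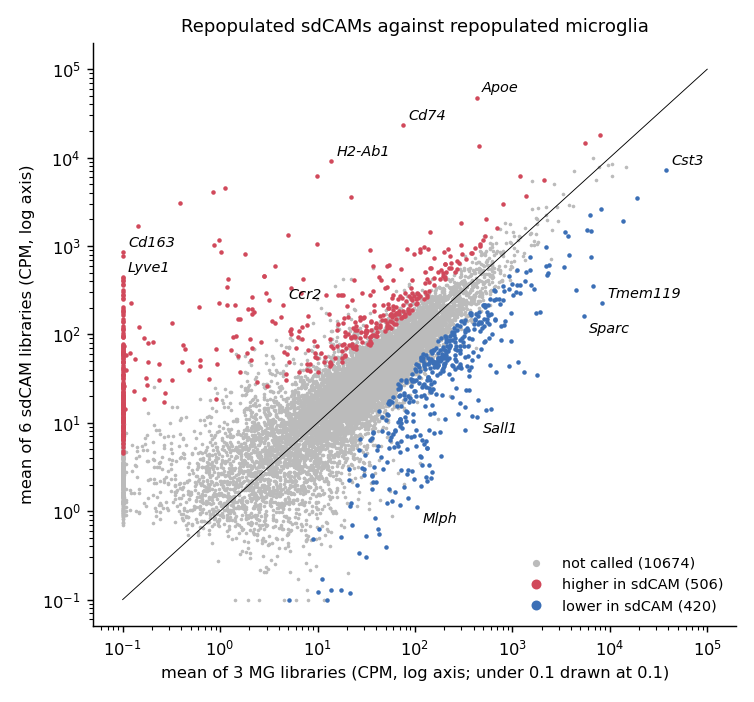
Mean level in the 3 MG libraries (x axis) and in the 6 sdCAM libraries (y axis) of each of the 11600 genes tested, in CPM on log axes. Red points are the 506 genes called higher in sdCAMs and blue points the 420 called lower, while the points drawn at 0.1 on the x axis are genes with a mean under 0.1 CPM in MG.

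The MG library of mouse 175 stood apart from the other MG libraries and is treated separately throughout. It was singled out by its low level of P2ry12, so that gene is no independent sign of the difference. P2ry12, an ADP receptor of resting microglia, was at 8359, 836 and 10270 CPM in MG, a level in mouse 175 within the range of the sdCAM libraries, 502 to 1079 CPM (median 735). Gpr34, a lysophosphatidylserine receptor, was likewise at 3614, 191 and 3626 CPM, and in mouse 175 it lay below every sdCAM library, 656 to 741 CPM (median 716). Of the 1489 genes at 100 CPM or more in the MG of both other mice, 209 (14%) were more than 4-fold below both values in mouse 175, 10 of them without a count. The same measure found 0 of 1178 genes in the MG of mouse 174, 1 of 1195 in that of mouse 177, and 0 to 2 genes in each sdCAM library. The library held counts for 10815 genes, against 12186 to 14597 in the other libraries. Other defining microglial genes were not low in it: Tmem119, at 5479, 12940 and 6294 CPM, and Sparc, at 4858, 6196 and 5223 CPM, were highest in mouse 175, and Sall1 was at 446, 383 and 478 CPM. What set the library apart was not tested.

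The labelled cell types were checked against their markers. The 10 microglial markers summed to 40300 to 53970 CPM in MG and to 4305 to 6092 CPM in sdCAMs. The 10 border macrophage markers summed to 282.5 to 539 CPM in MG, of which nearly all was Apoe, against 53770 to 66860 CPM in sdCAMs. Lyve1 and Clec12a had no count in any MG library. Microglial markers stood in the sdCAM libraries at a median of 6.49 to 9.53% of their mean in the MG of mice 174 and 177. In sorted populations, fewer cells of a type and less RNA per cell cannot be told apart. Of other cell types, the 6 T cell markers summed to 0 to 1.68 CPM in MG and to 16.95 to 157 CPM in sdCAMs, the highest being the tdT+ libraries of mice 174 and 177. None of the 6 was called with all libraries, and 1, Cd3g, was higher without the MG library of mouse 175 (adjusted p = 0.029). The 8 dendritic cell markers summed to 0.55 to 11.2 and 96.9 to 610.5 CPM, and 2 of the 4 tested were called higher, Cd209a and Kmo (2 of 5 without the MG library of mouse 175). Monocyte markers summed to at most 4.05 CPM in MG and 140.8 CPM in sdCAMs, the latter in the tdT- library of mouse 174. Plac8, the 1 of them tested with all libraries and 1 of 4 tested without the MG of mouse 175, was called higher in both fits, at 0.8, 0 and 0 CPM against 0 to 77.3 CPM (median 2.75), though its libraries overlapped (log2 fold change 5.17 ± 1.20, adjusted p = 0.0441). Neutrophil, mast cell and mural markers stayed under 5 CPM in every library. Of 5 astrocyte markers Slc1a3, a glutamate transporter, was lower in sdCAMs in both fits and Aldoc was higher without the MG library of mouse 175 (adjusted p = 0.00929). Of 5 oligodendrocyte markers Mag was lower with all libraries (adjusted p = 0.0485) and did not pass without that library (adjusted p = 0.0562). The part of these cells in the results was not tested.

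**Figure D2:**
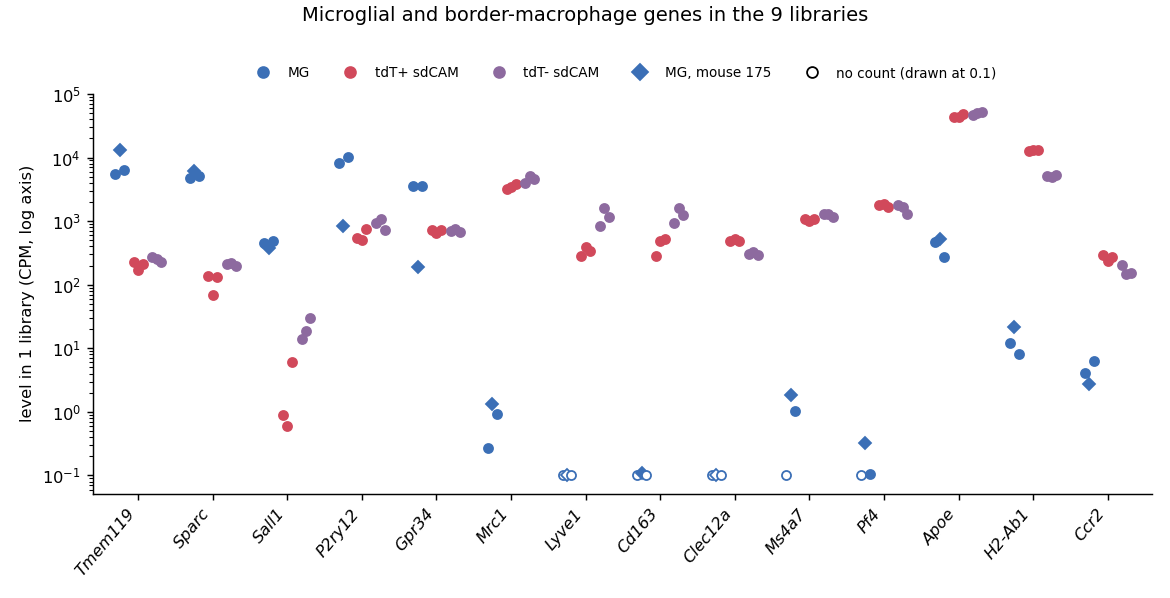
Level of 14 genes in each of the 9 libraries, in CPM on a log axis, with 1 point per library coloured by population and open points for libraries without a count. Tmem119, Sparc and Sall1 separate MG from sdCAMs in every library, whereas the MG library of mouse 175 (diamond) falls among the sdCAM libraries for P2ry12 and below them for Gpr34.

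Genes of the microglial resting state were lower in sdCAMs. Of 26 tested, 21 were lower and none higher, with a median log2 fold change of -2.84; without the MG library of mouse 175, 22 were lower. Sparc, a secreted matrix-binding protein, was at 4858, 6196 and 5223 CPM in MG and at 69.3 to 219 CPM (median 165) in sdCAMs (log2 fold change -5.16 ± 0.25, adjusted p = 0.000159). Olfml3, a secreted glycoprotein, was at 3804, 5719 and 4036 CPM against 236 to 425 CPM (median 311) (log2 fold change -3.85 ± 0.21, adjusted p = 0.000218). Tmem119, a membrane protein used to tell microglia from other macrophages, was at 5479, 12940 and 6294 CPM against 173 to 271 CPM (median 228) (log2 fold change -5.13 ± 0.29, adjusted p = 0.000223). For none of the 3 genes did the libraries of the 2 populations overlap, a separation found in this direction for 1020 of the 11600 genes tested. For P2ry12, given above, the populations overlapped only through the MG of mouse 175, and the log2 fold change of -2.86 (adjusted p = 0.0419) became -3.65 ± 0.20 (adjusted p = 1.94e-05) without it. The same held for Gpr34, which did not pass with all libraries, at -1.48 (adjusted p = 0.297), and passed without that one, at -2.34 ± 0.10 (adjusted p = 4.81e-06). That library was singled out for its low P2ry12, so the gain for P2ry12 follows from the choice and is no separate evidence. Gpr34 was low in the same library, and its gain follows likewise. Csf1r, the receptor that BLZ945 blocks, was at 10650, 20250 and 12890 CPM in MG and 5875 to 10000 CPM (median 7772) in sdCAMs, a log2 fold change of -0.87 (adjusted p = 0.0277) that did not reach the limit of 1.

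Among transcription factors of macrophage identity, 7 of 46 tested were higher and 7 lower (9 and 7 of 47 without the MG library of mouse 175). SALL1, which maintains the microglial programme, had its gene at 446, 383 and 478 CPM in MG and at 0.59 to 29.9 CPM (median 10.1) in sdCAMs (log2 fold change -6.23 ± 0.51, adjusted p = 0.000732). Within the sdCAMs the tdT+ libraries, at 0.89, 0.59 and 6.05 CPM, all lay below the tdT- libraries, at 14.1, 18.4 and 29.9 CPM. Here and below, such levels are a description only, since the direct comparison of tdT+ with tdT- sdCAMs called no gene with all libraries. Smad7, an inhibitor and target of TGF-beta signalling, was at 90.5, 152 and 92.9 CPM against 5.04 to 11.5 CPM (median 6.26) (log2 fold change -3.95 ± 0.34, adjusted p = 0.000865). In the other direction, Spic, a factor of iron-handling macrophages, was at 0 in all 3 MG libraries and at 17 to 42.3 CPM (median 23.2) in sdCAMs, at least 85.6-fold higher (adjusted p = 0.00672). Irf4 was also at 0 in all 3 MG libraries and at 10.3 to 49.6 CPM (median 20.1) in sdCAMs, at least 82.3-fold higher (adjusted p = 0.00787). Irf7, which amplifies the type I interferon response, was at 36, 18.8 and 12.7 CPM against 84.4 to 489 CPM (median 246) (log2 fold change 3.23 ± 0.45, adjusted p = 0.00653).

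Border macrophage genes were higher in sdCAMs for 27 of 29 tested, and none was lower, with and without the MG library of mouse 175. Cd163, the scavenger receptor for haptoglobin-bound haemoglobin, had 1 count in all MG libraries together and stood at 284 to 1595 CPM (median 733) in sdCAMs (ratio 23200, 95% counting interval 4160 to 916000; adjusted p = 0.000129). Lyz2, lysozyme, was at 434, 487 and 453 CPM in MG against 10800 to 16940 CPM (median 13210) (log2 fold change 4.85 ± 0.20, adjusted p = 0.000129). Mrc1, which encodes the sorting antigen, was at 0.27, 1.31 and 0.93 CPM against 3197 to 5162 CPM (median 3929). The members that did not pass were Hpgd, which inactivates prostaglandins, at a log2 fold change of 0.70 (adjusted p = 0.241), and Cd14. Cd14, the LPS co-receptor, was at 666, 1286 and 666 CPM in MG and 584 to 786 CPM (median 663) in sdCAMs. The study named 12 lineage genes of sdCAMs, and all 12 were higher. The study drew that list in part from related sdCAM samples, so its count is not independent evidence of the direction.

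Receptors for scavenging, lectin binding and uptake followed the same direction, with 26 of 43 tested higher and 3 lower (27 and 5 of 44 without the MG library of mouse 175). Lyve1, a hyaluronan receptor of perivascular and lymphatic cells, was at 0 in all 3 MG libraries and at 281 to 1626 CPM (median 618) in sdCAMs, at least 2580-fold higher (adjusted p = 0.000218). Its tdT+ libraries stood at 281, 394 and 341 CPM and its tdT- libraries at 842, 1626 and 1177 CPM, which did not overlap. Clec12a, an inhibitory lectin receptor, was at 0 in all 3 MG libraries and at 289 to 533 CPM (median 404) in sdCAMs, at least 1340-fold higher (adjusted p = 0.000218). Clec4n, which encodes the fungal receptor dectin-2, was at 0 in all 3 MG libraries and at 200.4 to 455 CPM (median 288) in sdCAMs, at least 995-fold higher (adjusted p = 0.00025). Clec10a, a galactose-type lectin, had 1 count over the MG libraries and stood at 226 to 811 CPM (median 354) in sdCAMs (ratio 11200, 95% counting interval 2010 to 442000; adjusted p = 0.000129). Cd209a, a lectin also found on dendritic cells and the source of most of the dendritic marker sum, was at 0 in all 3 MG libraries and at 54.4 to 502 CPM (median 233) in sdCAMs, at least 856-fold higher (adjusted p = 0.000411). The lower members were Siglech, Siglecf and Lrp1. Siglech, a sialic-acid-binding lectin, was at 2209, 2128 and 2524 CPM in MG against 250.1 to 592 CPM (median 511) (log2 fold change -2.34 ± 0.22, adjusted p = 0.00134). Siglecf, of the same family, was at 100, 6.46 and 48.5 CPM against 0 to 3.88 CPM (median 0.77) (adjusted p = 0.00934), with no count in any tdT+ library. Lrp1 is an endocytic receptor (log2 fold change -1.54 ± 0.27, adjusted p = 0.0151).

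The largest fold changes among genes of at least 50 CPM also included secreted proteins and enzymes. Gpx3, a secreted glutathione peroxidase, was at 0 in all 3 MG libraries and at 104 to 671 CPM (median 216) in sdCAMs, at least 925-fold higher (adjusted p = 0.000316). Fcna, ficolin A, a soluble pattern recognition protein, was at 0 in all 3 MG libraries and at 58.5 to 374 CPM (median 142) in sdCAMs, at least 607-fold higher (adjusted p = 0.00162). Pla2g2d, a secreted phospholipase, was at least 823-fold higher and Cd93, a C1q receptor-like glycoprotein, at least 612-fold higher, both from 0 counts in MG. At the other end of this ranking were Mlph, melanophilin, which links melanosomes to myosin, at 44.6, 197 and 71.9 CPM in MG against 0 to 3.70 CPM (median 0) in sdCAMs (adjusted p = 0.0117). Kcnd1, a potassium channel subunit, was at 81.5, 225 and 131 CPM against 0 to 6.21 CPM (median 1.34) (log2 fold change -8.14 ± 0.66, adjusted p = 0.000714). Plpp1, a lipid phosphatase, was at 65.9, 96 and 85.5 CPM against 0 to 7.62 CPM (median 1.13) (adjusted p = 0.00344). Mlph and Plpp1 had no count in any tdT+ library. Siglecf, given above, Whrn, Wscd1, Asap3, Slco4a1, Nectin2 and Sall3 completed the 10 lower genes, with adjusted p-values up to 0.0224, that of Asap3.

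MHC class II molecules present peptides to CD4 T cells. Of 16 genes of this pathway tested, 5 were higher in sdCAMs and none lower (8 and 1 without the MG library of mouse 175). The 5 were H2-Ab1, H2-Aa and H2-Eb1, which encode chains of the presenting molecule, Cd74, its invariant chain, and H2-DMb1, a chain of the peptide-loading molecule. H2-Ab1 was at 12.3, 21.3 and 8.00 CPM in MG and at 5033 to 13370 CPM (median 8925) in sdCAMs (log2 fold change 9.28 ± 0.41, adjusted p = 0.000136). The tdT+ libraries stood at 12580, 13350 and 13370 CPM and the tdT- libraries at 5077, 5033 and 5272 CPM, without overlap. Cd74 was at 56, 128 and 43.7 CPM against 13180 to 35600 CPM (median 21900) (log2 fold change 8.22 ± 0.45, adjusted p = 0.000218). H2-Eb1 was at 0.53, 2.52 and 0.31 CPM against 2434 to 6963 CPM (median 4374) (log2 fold change 11.99 ± 0.76, adjusted p = 0.000274). For H2-Aa the MG libraries varied most, at 6.37, 23.2 and 0.21 CPM, against 3164 to 9478 CPM (median 5933) (log2 fold change 9.64 ± 1.32, adjusted p = 0.00614). H2-DMb1 was well expressed in MG, at 159, 255 and 142 CPM, and stood at 289.9 to 752 CPM (median 552) in sdCAMs (log2 fold change 1.45 ± 0.23, adjusted p = 0.0115), though how reads shared with its near copy H2-DMb2 were counted is not given in the sources used here. In each of these 5 genes the MG library of mouse 175 was the highest of the MG libraries and still lay below every sdCAM library.

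The master regulator of these genes, Ciita, was at 0, 14.2 and 0 CPM in MG and at 35.4 to 119 CPM (median 63.3) in sdCAMs. It did not pass with all libraries (log2 fold change 5.65 ± 2.00, adjusted p = 0.15), where the MG of mouse 175 alone held counts, and passed without that library (adjusted p = 0.00014). The loading-molecule chain gene H2-DMa went the same way, from 0.59 (adjusted p = 0.276) to 1.06 ± 0.14 (adjusted p = 0.00195). Ctss, cathepsin S, which trims the invariant chain, was at 11560, 8937 and 11490 CPM in MG and 5438 to 6865 CPM (median 6270) in sdCAMs, a log2 fold change of -0.77 (adjusted p = 0.0182) that stayed under the fold limit.

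The promoters of 3 of the 5 called genes are shown, chosen because they hold 1 shared element. Of the other called genes, H2-Ab1 had no entry among the promoter sequences, and Cd74 was not among those with the element. That the 3 share it therefore follows from the choice. Given are the 150 bases before the annotated start, 5′ to 3′ on the strand of the gene, in RefSeq's GRCm38.p6. The letters TGATTGG are in capitals, the core of the Y box of MHC class II promoters, which is a CCAAT box read on the other strand.
H2-Aa (chr17:34287824-34287973, minus strand): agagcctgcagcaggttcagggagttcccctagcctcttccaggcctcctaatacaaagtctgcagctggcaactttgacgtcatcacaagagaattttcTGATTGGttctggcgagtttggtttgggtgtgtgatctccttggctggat
H2-Eb1 (chr17:34305717-34305866, plus strand): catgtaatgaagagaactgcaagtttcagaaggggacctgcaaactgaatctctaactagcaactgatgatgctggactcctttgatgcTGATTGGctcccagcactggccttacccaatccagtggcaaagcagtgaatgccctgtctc
H2-DMb1 (chr17:34153041-34153190, plus strand): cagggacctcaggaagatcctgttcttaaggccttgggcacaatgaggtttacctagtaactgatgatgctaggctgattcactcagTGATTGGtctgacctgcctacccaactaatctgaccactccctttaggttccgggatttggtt
The capitals begin -50, -61 and -63 bases from the start, in that order. Counting either strand, TGATTGG stood in the same window of 1877 of 32851 promoters in the table (5.71%), and in 7 of the 12 members of the MHC class II list that the table held. The 7 were these 3 and H2-Eb2, H2-DMb2, H2-Oa and H2-Ob, and of those 4 none was called higher. A match of letters is a description of the window and not a measured site.

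Chemokine receptors numbered 4 higher and 1 lower among 11 tested (6 and 2 of 14 without the MG library of mouse 175). Ccr2, which drives the Cre and guides monocytes, was at 4.07, 2.74 and 6.34 CPM in MG and at 148 to 289 CPM (median 220.2) in sdCAMs (log2 fold change 5.63 ± 0.35, adjusted p = 0.00025). Its tdT+ libraries stood at 289, 239.9 and 272 CPM and its tdT- libraries at 201, 148 and 154 CPM, so every tdT- library also lay above every MG library. Cx3cr1, the fractalkine receptor of both populations, was lower in sdCAMs, at 5521, 7199 and 6714 CPM against 1112 to 1706 CPM (median 1484) (log2 fold change -2.15 ± 0.16, adjusted p = 0.000552). Fpr1, a receptor for formylated bacterial peptides, had 4 counts over the MG libraries against 13 to 118 CPM (median 49.8) (adjusted p = 0.00277). Cxcr4 and Fpr2 had no count in MG and were at least 25-fold and at least 21.8-fold higher. Ccr1 did not pass with all libraries, at 36.6, 0.11 and 17.9 CPM in MG against 279.5 to 606 CPM (median 427) (log2 fold change 4.87 ± 1.29, adjusted p = 0.0677), and passed without the MG of mouse 175, at 3.91 ± 0.26 (adjusted p = 5.33e-05). Cxcr6, a receptor shared with tissue T cells, was at 0 in all 3 MG libraries and did not pass (adjusted p = 0.191): among sdCAMs it was at 132, 0 and 78.8 CPM in tdT+ and 12.4, 1.95 and 0 CPM in tdT- libraries. The tdT+ libraries of mice 174 and 177, where it was highest, were also those with the highest T cell marker sums, 157 and 118.6 CPM.

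Of 19 chemokine genes tested, 8 were higher and 1 lower (8 and 0 without the MG library of mouse 175). Ccl8, a ligand of several CC receptors, had 2 counts over the MG libraries and stood at 254 to 430.2 CPM (median 307) in sdCAMs (ratio 4800, 95% counting interval 1330 to 39600; adjusted p = 0.000136). Pf4, platelet factor 4, was at 0, 0.33 and 0.1 CPM in MG, 4 counts in all, against 1308 to 1859 CPM (median 1727) (adjusted p = 0.000159). Ccl7, a CCR2 ligand, was at 0 in all 3 MG libraries and at 93.3 to 494 CPM (median 269.7) in sdCAMs, at least 923-fold higher (adjusted p = 0.000534). The lower gene was Ccl4, a CC chemokine, at 38.2, 36 and 7.27 CPM against 0.44 to 20.1 CPM (median 3.70) (log2 fold change -2.58 ± 0.53, adjusted p = 0.0289). Its groups overlapped, and its call was lost without the MG of mouse 175, at -2.50 ± 0.71 (adjusted p = 0.057).

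**Figure D3:**
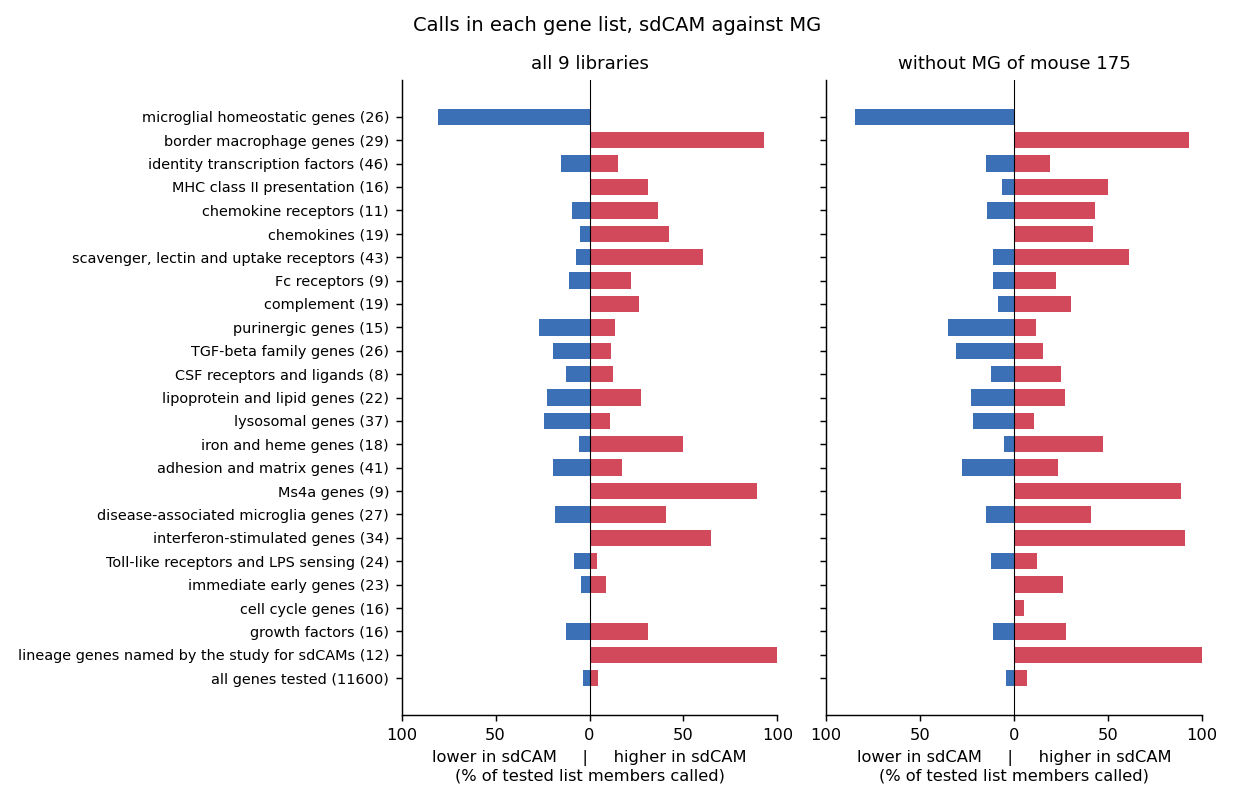
Share of the tested members of each gene list that was called higher (red, to the right) or lower (blue, to the left) in sdCAMs, in percent, with all 9 libraries (left) and without the MG library of mouse 175 (right). The number of members tested with all libraries stands beside each list, and the bottom row gives all genes, 4.36% higher and 3.62% lower with all libraries.

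Genes of lipid transport split, with 6 of 22 tested higher and 5 lower in both fits. Apoe, the main lipoprotein of the brain, was at 478, 531 and 276 CPM in MG and at 43470 to 52040 CPM (median 47790) in sdCAMs (log2 fold change 6.82 ± 0.32, adjusted p = 0.000136). Pltp, which transfers phospholipids between lipoproteins, was at 2.83, 0.22 and 0 CPM against 659 to 1091 CPM (median 799) (log2 fold change 9.94 ± 1.25, adjusted p = 0.00426). Plin2, a coat protein of lipid droplets, was at 39.9, 75.7 and 50.6 CPM against 134 to 222 CPM (median 158) (log2 fold change 1.61 ± 0.25, adjusted p = 0.0097). On the lower side, Trem2, a lipid-sensing receptor, was at 1824, 3519 and 1778 CPM against 508 to 704 CPM (median 633) (log2 fold change -1.90 ± 0.21, adjusted p = 0.00237). Its tdT+ libraries, at 700.3, 694 and 704 CPM, lay above its tdT- libraries, at 508, 571 and 525 CPM. Abcg1, a cholesterol exporter (log2 fold change -2.67 ± 0.40, adjusted p = 0.00821), and Mylip, which degrades the LDL receptor (log2 fold change -2.06 ± 0.33, adjusted p = 0.0107), were also lower.

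Lysosomal genes were more often lower than higher, 9 against 4 of 37 tested (8 against 4 without the MG library of mouse 175). Ctsd, an aspartic protease, was at 15870, 26360 and 14860 CPM in MG and 2551 to 4570 CPM (median 3500) in sdCAMs (log2 fold change -2.45 ± 0.19, adjusted p = 0.000572). Cst3, cystatin C, a secreted protease inhibitor, was at 29120, 56980 and 26720 CPM against 6677 to 8083 CPM (median 6966) (log2 fold change -2.34 ± 0.24, adjusted p = 0.00199). Other cathepsins ran the other way. Ctsb, a cysteine protease, was at 5390, 5693 and 5529 CPM in MG and 12420 to 16560 CPM (median 14650) in sdCAMs (log2 fold change 1.39 ± 0.15, adjusted p = 0.00229). Ctsc, which activates granule proteases, was at 1399, 577 and 1622 CPM against 5132 to 7045 CPM (median 6328) (log2 fold change 2.43 ± 0.36, adjusted p = 0.00777). Cd63, a tetraspanin of late endosomes, was higher as well (log2 fold change 1.22 ± 0.17, adjusted p = 0.00623).

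Of 18 iron and heme genes tested, 9 were higher and 1 lower in the fit with all libraries, and 9 and 1 of 19 without the MG of mouse 175. Cp, ceruloplasmin, which oxidises iron for export, had 1 count over the MG libraries and stood at 242 to 479 CPM (median 371) in sdCAMs (ratio 10700, 95% counting interval 1910 to 421000; adjusted p = 0.000136). Blvrb, which reduces biliverdin, was at 17.9, 65.7 and 26.6 CPM against 277 to 339 CPM (median 305) (log2 fold change 3.23 ± 0.38, adjusted p = 0.00324). Hebp1, a heme-binding protein, was the lower member, at 108, 97.2 and 89.2 CPM against 15.9 to 27.3 CPM (median 24.4) (log2 fold change -2.12 ± 0.30, adjusted p = 0.00735). The iron exporter gene Slc40a1 did not pass and differed within sdCAMs, at 121, 171 and 81.5 CPM in tdT+ and 610.2, 904 and 562 CPM in tdT- libraries, with MG at 362, 114 and 480.1 CPM. Trf, transferrin, was above MG in every sdCAM library, at 3975 to 6239 CPM (median 4950) against 2336, 3295 and 2368 CPM, with a log2 fold change of 0.92 (adjusted p = 0.0112) under the fold limit. The list shares Cd163 with the border genes above.

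Complement genes numbered 5 higher and none lower among 19 tested (7 and 2 of 23 without the MG library of mouse 175). C4b, of the classical pathway, was at 0.27, 0 and 5.19 CPM in MG and 311 to 1728 CPM (median 603) in sdCAMs (log2 fold change 9.21 ± 1.21, adjusted p = 0.00522). Its tdT+ libraries, at 311, 322 and 365 CPM, lay below its tdT- libraries, at 839.7, 1260 and 1728 CPM. Its reads cannot all be told from those of its near copy C4a. C3, the central component, had 1 count over the MG libraries against 5.18 to 46.6 CPM (median 17.7) (ratio 730, 95% counting interval 131 to 28800; adjusted p = 0.00286). Cfp, properdin, was at 3.10, 0 and 3.22 CPM against 168 to 362 CPM (median 270.1) (log2 fold change 6.98 ± 1.13, adjusted p = 0.0116). C2, a classical pathway protease, was at 0.088, 0 and 0.62 CPM against 2.22 to 78.3 CPM (median 18.2) (log2 fold change 6.39 ± 1.07, adjusted p = 0.0131). C5ar1, the C5a receptor, was at 281, 469 and 386 CPM against 562 to 1089 CPM (median 831) (log2 fold change 1.15 ± 0.20, adjusted p = 0.0168). For C2 the tdT+ libraries, at 2.22, 8.36 and 8.47 CPM, lay below the tdT- libraries, at 27.9, 78.3 and 57.8 CPM. C1qa, a chain of the recognition molecule made by both populations, was at 5648, 10640 and 5176 CPM in MG and 5241 to 5698 CPM (median 5538) in sdCAMs and did not pass (log2 fold change -0.32 ± 0.21, adjusted p = 0.442).

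Of 9 Fc receptor genes tested, 2 were higher and 1 lower in both fits. Fcgrt, the neonatal Fc receptor that recycles IgG, was at 185, 310.2 and 163 CPM in MG and 678 to 1399 CPM (median 886) in sdCAMs (log2 fold change 2.11 ± 0.19, adjusted p = 0.00127). Fcgr2b, the inhibitory receptor, was at 513, 487 and 559 CPM against 1087 to 1605 CPM (median 1240) (log2 fold change 1.29 ± 0.16, adjusted p = 0.00409). Fcrl1, an Fc receptor-like gene, was at 57.9, 182 and 51.6 CPM against 0.11 to 22.6 CPM (median 5.12) (log2 fold change -4.55 ± 0.80, adjusted p = 0.0156). Fcgr3, an activating receptor, was at 2143, 2268 and 2273 CPM and 2046 to 2649 CPM (median 2226), with a log2 fold change of 0.02 ± 0.14.

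Among purinergic genes, which sense and clear nucleotides, 2 of 15 tested were higher and 4 lower (2 and 6 of 17 without the MG library of mouse 175). Adora3, an adenosine receptor, was at 146, 140.3 and 131 CPM in MG against 2.19 to 7.37 CPM (median 2.36) (log2 fold change -5.48 ± 0.45, adjusted p = 0.000745). P2ry13, an ADP receptor, was at 2460, 1004 and 3188 CPM against 467 to 750.2 CPM (median 557) (log2 fold change -1.84 ± 0.31, adjusted p = 0.0139). Slc29a3, a nucleoside transporter, was at 697, 558 and 794 CPM against 209 to 312 CPM (median 252) (log2 fold change -1.44 ± 0.16, adjusted p = 0.00236). P2rx4, an ATP-gated channel, was higher, at 137, 214 and 161 CPM against 490.2 to 549 CPM (median 501) (log2 fold change 1.60 ± 0.19, adjusted p = 0.0036). Ada, adenosine deaminase, had 2 counts over the MG libraries against 5.47 to 19.7 CPM (median 15.1) (adjusted p = 0.0265).

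The TGF-beta family, which maintains microglia, held 3 higher and 5 lower genes of 26 tested (4 and 8 without the MG library of mouse 175). Smad7, given above, Ski, a repressor of SMAD signalling (log2 fold change -1.83 ± 0.21, adjusted p = 0.00319), and Smad3 led the lower side. Smad3, a signal transducer, was at 56, 120 and 113 CPM in MG against 10.8 to 24.6 CPM (median 17.1) (log2 fold change -2.45 ± 0.32, adjusted p = 0.00483). Tgfbi, a secreted matrix protein induced by TGF-beta, was higher, at 73.3, 107 and 69.1 CPM against 693 to 1101 CPM (median 979) (log2 fold change 3.46 ± 0.23, adjusted p = 0.000319). Nrros, which anchors latent TGF-beta on microglia, was at 317, 703 and 385 CPM against 697 to 1227 CPM (median 1026) (log2 fold change 1.15 ± 0.22, adjusted p = 0.0207). Of its tdT+ libraries 1, at 697 CPM, lay just below the MG of mouse 175. Bmp2, a bone morphogenetic protein, had 5 counts over the MG libraries, all in mouse 175, against 30.5 to 67.2 CPM (median 46.8) (adjusted p = 0.00753).

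Of 8 tested genes for CSF receptors and ligands, Il3ra was higher, from 0 counts in MG to 10.01 to 21.2 CPM (median 14.5) (at least 49-fold; adjusted p = 0.0137). Csf3r, the G-CSF receptor, was lower, at 725, 682 and 563 CPM against 114 to 199.5 CPM (median 139) (log2 fold change -2.17 ± 0.21, adjusted p = 0.00137). Without the MG library of mouse 175, 2 of 8 were higher and 1 lower. The Ms4a genes, a cluster of tetraspanning proteins of myeloid cells, were higher for 8 of 9 tested in both fits. Ms4a4a had 2 counts over the MG libraries against 397 to 488 CPM (median 430) (ratio 6010, 95% counting interval 1660 to 49700; adjusted p = 0.000229). Ms4a6c was at 46.8, 25.1 and 39.4 CPM against 530.1 to 771 CPM (median 568) (log2 fold change 4.03 ± 0.25, adjusted p = 0.00025). Ms4a7 was at 0, 1.86 and 1.04 CPM against 1018 to 1317 CPM (median 1112) (log2 fold change 10.38 ± 0.98, adjusted p = 0.00137). The ninth, Ms4a8a, held at most 2.59 CPM in any library and did not pass. These genes are related in sequence, and how reads shared between them were counted is not given in the sources used here.

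Adhesion and matrix genes were called in both directions, 7 higher and 8 lower of 41 tested (10 and 12 of 43 without the MG library of mouse 175). Mmp9, a gelatinase, was at 0 in all 3 MG libraries and at 80.2 to 217 CPM (median 134) in sdCAMs, at least 471-fold higher (adjusted p = 0.000729). Emilin2, an elastic-fibre protein, had 1 count over the MG libraries against 47.9 to 234 CPM (median 182) (adjusted p = 0.000714). Fxyd5, a regulator of adhesion and ion transport, was at 12.6, 20.7 and 15.2 CPM against 190.1 to 353 CPM (median 296) (log2 fold change 4.08 ± 0.34, adjusted p = 0.000745). Besides Sparc, the lower side was led by the tetraspanin Cd9, at 2046, 1615 and 2063 CPM against 133 to 235 CPM (median 177) (log2 fold change -3.41 ± 0.18, adjusted p = 0.000185). Selplg, the P-selectin ligand, was at 4652, 10350 and 4940 CPM against 308 to 394 CPM (median 369) (log2 fold change -4.16 ± 0.26, adjusted p = 0.000257).

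Interferon-stimulated genes were higher in sdCAMs for 22 of 34 tested and lower for none, with a median log2 fold change of 3.37 that was the same with genes absent from MG set at their bound. Without the MG library of mouse 175, 31 of 34 were higher. Rtp4, a chaperone induced by interferon, was at 67.6, 33.6 and 48.2 CPM in MG and at 180.1 to 545 CPM (median 324) in sdCAMs (log2 fold change 2.71 ± 0.19, adjusted p = 0.000411). Ifi204, a DNA sensor of the PYHIN family, was at 22.6, 7.33 and 25.4 CPM against 184 to 419 CPM (median 281) (log2 fold change 4.00 ± 0.32, adjusted p = 0.000695). Its relative Ifi203 was at 0 in all 3 MG libraries and at 79.8 to 128 CPM (median 105) in sdCAMs, at least 348-fold higher (adjusted p = 0.000648). Both PYHIN genes lie among close relatives, so their split of reads is uncertain. Levels varied by mouse: Irf7 in sdCAMs of mouse 175 was 84.4 CPM in tdT+ and 87.3 CPM in tdT- libraries, against 193.7 to 489 CPM in the other 4 libraries. For Rtp4 the sdCAM libraries of mouse 175 were again the lowest of their populations. Ifit2, an inhibitor of translation induced by interferon, was at 21.2, 0 and 26.4 CPM in MG against 65.5 to 279 CPM (median 139) and did not pass with all libraries (log2 fold change 3.79 ± 1.15, adjusted p = 0.103). It passed without the MG of mouse 175, at 2.90 ± 0.36 (adjusted p = 0.0013).

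Immediate early genes, which respond within minutes to stimuli including cell isolation, held 2 higher and 1 lower gene of 23 tested (6 and 0 without the MG library of mouse 175). Ier2 was at 31.4, 12.7 and 3.74 CPM in MG, 172, 109 and 60.2 CPM in tdT+ and 183, 94 and 48.5 CPM in tdT- libraries (log2 fold change 3.07 ± 0.36, adjusted p = 0.00319). The order of mice, 174 above 175 above 177, was the same in all 3 populations. Jun, an AP-1 subunit that did not pass, had that order too, at 420.1, 287 and 56.5 CPM, 555, 368 and 153 CPM and 536, 337 and 136 CPM. Egr1 repeated it once more, at 25.5, 1.31 and 0.21 CPM, 72, 43.3 and 16.8 CPM and 62.8, 49.2 and 16 CPM (log2 fold change 3.68 ± 1.07, adjusted p = 0.0896). Dusp1, a phosphatase that ends MAP kinase signalling, was at 15.2, 0.66 and 0 CPM in MG against 51.7 to 215 CPM (median 73.1) (log2 fold change 5.71 ± 1.15, adjusted p = 0.027). In tdT+ libraries Dusp1 was lower in mouse 175 than in mouse 177, and Junb in MG was highest in mouse 175. The order of mice thus did not hold for every member of the list. The lower gene, Ier5, overlapped between populations and lost its call without the MG of mouse 175 (-1.01 ± 0.28 (adjusted p = 0.0524)).

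Toll-like receptor and LPS-sensing genes held 1 higher and 2 lower genes of 24 tested (3 and 3 without the MG library of mouse 175). Tlr8, an endosomal RNA sensor, was at 0 in all 3 MG libraries and at 67.2 to 141 CPM (median 125) in sdCAMs, at least 380-fold higher (adjusted p = 0.000869). Tlr12, a profilin sensor, was at 88.5, 233 and 95 CPM against 3.38 to 16.8 CPM (median 6.61) (log2 fold change -3.98 ± 0.58, adjusted p = 0.00777). Tlr3, a sensor of double-stranded RNA, was at 228, 77.5 and 118 CPM against 23 to 60.2 CPM (median 41.9) (log2 fold change -1.70 ± 0.39, adjusted p = 0.0413). Tlr4, the LPS receptor, was at 201, 2.74 and 279 CPM in MG and at 267 to 396 CPM (median 295) in sdCAMs (log2 fold change 1.29 ± 1.11, adjusted p = 0.555). The MG of mouse 175 alone was far below the rest. Of 16 cell cycle genes tested none passed with all libraries. Without the MG of mouse 175 1 of 19 tested passed, Mcm2. Mki67, the proliferation antigen, was at 0 in all 3 MG libraries and at 0.099 to 11.5 CPM (median 2.44) in sdCAMs (adjusted p = 0.111).

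**Figure D4:**
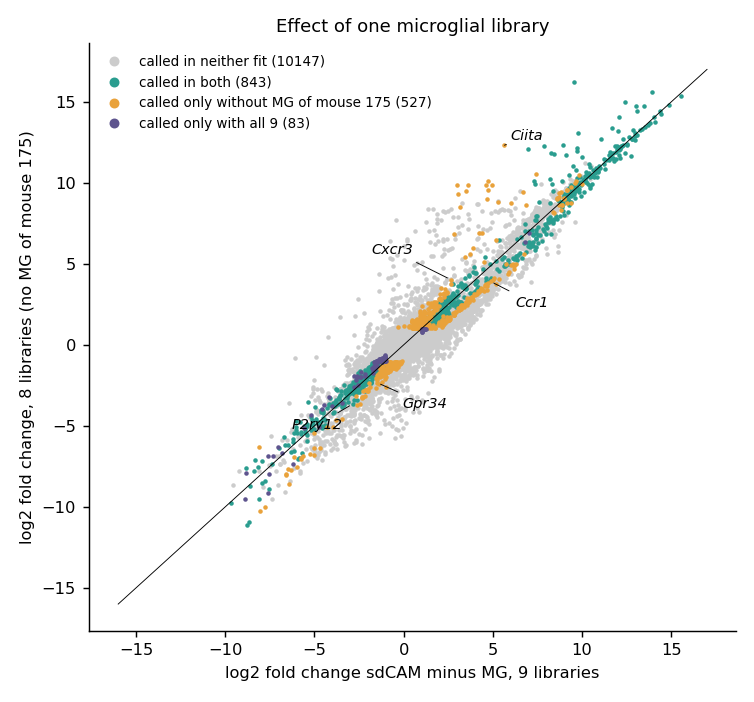
Log2 fold change of sdCAM minus MG for each gene tested in both fits, with all 9 libraries (x axis) and with the 8 libraries left without the MG of mouse 175 (y axis). The 843 genes called in both follow the diagonal for the most part, 527 were called only without that library, and 83 only with it.

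The tdT+ and tdT- sdCAMs were also each compared with MG. Against MG, 439 genes were higher in tdT+ sdCAMs (3.78%) and 300 lower (2.59%), and 380 were higher in tdT- sdCAMs (3.28%) and 201 lower (1.73%). Both comparisons use the same 3 MG libraries. They shared 353 higher genes, 80.4% of the tdT+ and 92.9% of the tdT- calls, and 188 lower genes, 62.7% and 93.5%. Of microglial homeostatic genes, 19 of 26 were lower in tdT+ and 16 in tdT- sdCAMs, and of border macrophage genes 27 of 29 were higher in each. The direct comparison of tdT+ with tdT- sdCAMs called none of 11600 genes (0%) by edgeR, with 282 at an unadjusted p under 0.05, and DESeq2 called 92. Without the MG library of mouse 175 edgeR called 25 of 12320 genes, and what moved the count was not tested. For H2-Ab1 the tdT+ minus tdT- log2 fold change was 1.35 (adjusted p = 1), for Cd74 1.24 (adjusted p = 1), for Lyve1 -1.80 (adjusted p = 0.483) and for Cd163 -1.55 (adjusted p = 1). The libraries of the 2 kinds did not overlap for any of these 4 genes. The share of all genes with such a separation was not counted, so it does not show that these genes differ. That also applies to the other genes above whose tdT+ and tdT- levels were set apart.

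The difference between sdCAMs and MG was then set against the same difference in mice that had never been depleted, to ask where the repopulated state departs from the undisturbed one. The untreated mice were 3 Ccr2-/- mice and 3 wild-type (WT) mice given PBS 12 h before harvest, with 1 sdCAM and 1 MG library each. They carried neither the reporter genotype nor tamoxifen and belong to the other labelled batch (1 rather than 2), so depletion, genotype, tamoxifen and batch cannot be told apart. Levels are the mean ± SD over 6 repopulated sdCAM libraries and over 3 libraries of every other group. Against Ccr2-/- mice, 4 of 12583 genes (0.0318%) had a larger sdCAM minus MG difference in repopulated mice and none a smaller one. By edgeR 673 had an unadjusted p under 0.05, close to the share of 0.05 that would arise without any difference. DESeq2 called 208 larger and 56 smaller differences. Ccr2, the gene disrupted in the comparison mice, was at 222 ± 61.8 CPM in repopulated and 3.67 ± 1.65 CPM in Ccr2-/- sdCAMs (difference 6.41 ± 0.43, adjusted p = 0.000992). H2-Ab1 was at 9308 ± 4480 CPM in repopulated and 678 ± 363 CPM in Ccr2-/- sdCAMs, with MG at 13.8 ± 6.76 and 20.6 ± 15.3 CPM (difference 4.16 ± 0.38, adjusted p = 0.00702). H2-Eb1 was at 4617 ± 2300 CPM and 316 ± 148 CPM in sdCAMs in the same order (difference 6.32 ± 0.72, adjusted p = 0.0336). Its MG stood at 1.115 ± 1.21 and 7.69 ± 7.44 CPM, so part of this difference comes from low MG levels. Epor, the erythropoietin receptor, differed through its MG level. It was at 61 ± 21.4 CPM in repopulated and 110.2 ± 6.2 CPM in Ccr2-/- sdCAMs, and MG stood at 0 in all 3 repopulated and at 3.16, 3.15 and 3.85 CPM in Ccr2-/- libraries (adjusted p = 0.0371). Emb, an adhesion protein of the immunoglobulin family, was at 93.3 ± 33.3 CPM and 19.3 ± 5.83 CPM and did not pass (adjusted p = 0.0947). The calls of H2-Eb1 and Epor were lost in every fit that left out 1 Ccr2-/- library or 1 sdCAM library or the MG of mouse 174, with adjusted p from 0.05 to 0.235. That of H2-Ab1 was lost without either library of the Ccr2-/- mice 1m and 5f, at 0.0658 to 0.0729. Without the MG of mouse 175 or 177 the genes called numbered 43 (14 of them smaller differences) or 21, and without any other single library 1 to 6. The lower differences with the smallest p, those of Pxdc1, Siglec1, Siglecf, Tgfbi and Wscd1, ranged from -6.56 to -1.09 and did not pass. Microglial markers stood at a median of 7.1 to 11.1% of the same animal's MG in Ccr2-/- sdCAMs and at 7.56 to 14.3% in repopulated sdCAMs. In mouse 175, set against its own MG, they were at 11.1% in tdT+ and 14.3% in tdT- sdCAMs. Against the MG of mice 174 and 177 the repopulated range was 6.49 to 9.53%.

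Against WT mice, 18 of 12757 genes (0.141%) had a higher and 59 (0.462%) a lower difference. The MHC class II genes were again among the higher, with H2-Ab1 at 9328 ± 4420 CPM in repopulated and 706 ± 187 CPM in WT sdCAMs (difference 3.01 ± 0.39, adjusted p = 0.0145). H2-Eb1 was at 4627 ± 2270 CPM and 503 ± 192 CPM in sdCAMs and at 1.08 ± 1.13 and 3.52 ± 2.74 CPM in MG (difference 4.71 ± 0.68, adjusted p = 0.0184). In both cohorts every repopulated sdCAM library, tdT- included, lay above every untreated sdCAM library for these 2 genes. Emb was at 93.8 ± 33.3 CPM and 5.17 ± 1.27 CPM in sdCAMs (difference 6.26 ± 0.89, adjusted p = 0.0184). Its MG stood at 0.16 ± 0.05 CPM in repopulated mice, a level not told from absent at this depth, and at 0.90 ± 0.75 CPM in WT mice. Part of the differences of H2-Eb1 and Emb thus comes from low MG levels. Cp was at 379 ± 87 CPM and 448 ± 51.2 CPM in sdCAMs and at 0.035 ± 0.061 and 4.38 ± 0.78 CPM in MG (difference 6.24 ± 0.68, adjusted p = 0.00364). Mrc1, the sorting antigen's gene, was at 4161 ± 761 CPM and 3250 ± 799 CPM in sdCAMs and 0.82 ± 0.5 and 10.8 ± 0.46 CPM in MG (difference 4.15 ± 0.45, adjusted p = 0.00364). For both genes the MG levels differed more than the sdCAM levels. Without either library of WT mice 9 and 14 the calls of H2-Ab1, H2-Eb1 and Emb were lost, at adjusted p of 0.066 to 0.119, and the genes called numbered 8 or 9. Without a library of WT mouse 15 they numbered 380 or 382, without the MG of mouse 175 they numbered 287, and without any other repopulated library 34 to 94. Of the lower differences, Sparc was at 165 ± 60.5 CPM in repopulated and 1343 ± 185 CPM in WT sdCAMs (difference -3.76 ± 0.35, adjusted p = 0.00133). Lag3, an inhibitory receptor, was at 1.99 ± 1.64 CPM and 80.4 ± 39.7 CPM (difference -6.43 ± 0.66, adjusted p = 0.00286). Of 26 microglial homeostatic genes 9 were lower in this sense, with a median difference of -1.7. Against Ccr2-/- mice 0 of 26 were lower, with a median difference of -0.38. The WT sdCAM libraries were shallower, with 1929070 to 3049028 counts, and held microglial markers at a median of 13 to 36.2% of the same animal's MG. The remaining 3 named genes, Rn18s, Lars2 and Mir6236, which derive from or share sequence with ribosomal RNA, made up 2.12 to 7.79% of their counts and at most 0.15% of those of the 9 repopulated libraries. Their differences, in that order, were -5.85 (adjusted p = 0.000674), -7.62 (adjusted p = 0.000674) and -7.77 (adjusted p = 0.00133). Their part in the WT comparison was not tested.

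**Figure D5:**
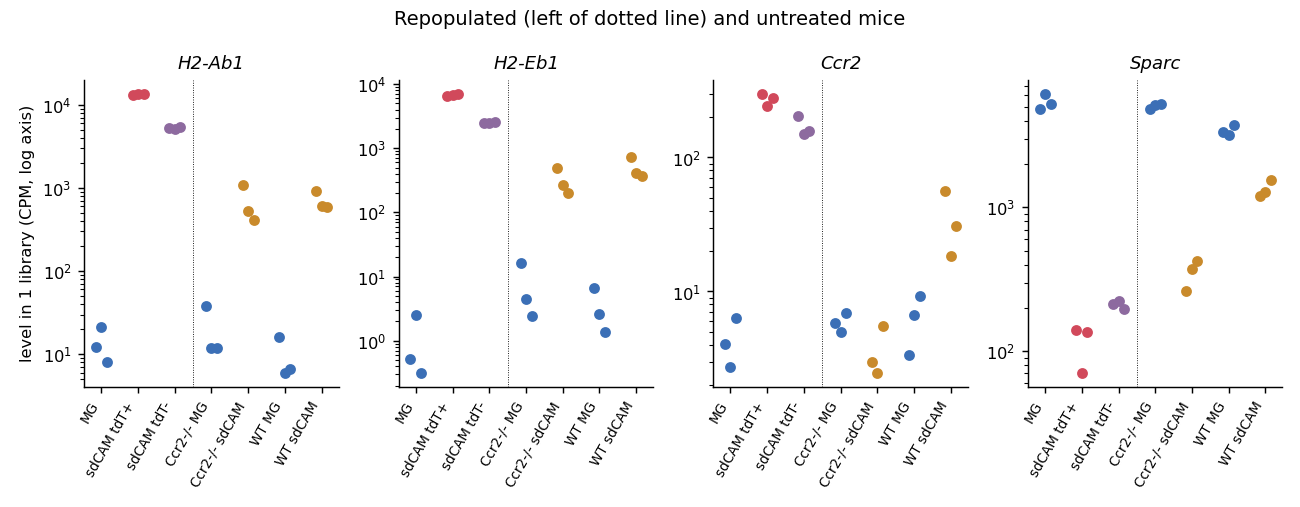
Level of H2-Ab1, H2-Eb1, Ccr2 and Sparc in each library, in CPM on log axes, for the 9 repopulated libraries (left of the dotted line) and 6 libraries each of untreated Ccr2-/- and WT mice. Each untreated cohort was scaled in its own fit with the 9 libraries, and the repopulated points are those of the Ccr2-/- fit; H2-Ab1 and H2-Eb1 are higher in every repopulated sdCAM library than in every untreated one.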

How the data were processed

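RNA of sorted cells was amplified with the SMARTer Ultra Low Input kit, made into Nextera XT libraries and sequenced as 50-base single reads, without strand marking and without molecular identifiers. The authors deposited raw counts per gene symbol, made per the labels with bcl2fastq 2.20, STAR 2.7.11a and featureCounts 2.0.8, and replicates were not pooled. The labels name 2 genome builds, so no coordinates of counted genes are given.

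Counts of 33280 symbols were used as deposited, with groups taken from the labels. Genes kept by filterByExpr were scaled by TMM and tested with edgeR 4.0.16 (quasi-likelihood, R 4.3.3) in a model of mouse and population, with the mean of tdT+ and tdT- sdCAMs less MG as the main contrast; DESeq2 1.42.0 and limma 3.58.1 were alternatives. Same-numbered libraries come from the same animal, which is why the mouse was a block; their deviations from the group means correlated at -0.031 to 0.088. Cohort differences were fitted over 15 libraries with all mice as blocks. A group without counts was set at 3 counts per library for a fold bound. A group that held counts, but none of whose libraries held more than 3, got an exact counting interval. On simulated counts for 11177 genes, 21% of 4-fold and 85% of 16-fold changes were recovered for the main contrast.

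The members, gene lists and tests were chosen with earlier results of these data known. Named were, per list, up to 3 called genes in each direction with the smallest adjusted p and then genes that did not pass, 10 genes in each direction by fold change, 5 in each direction per cohort contrast, and Ccr2. P2ry12, Mcm2, Fpr2, H2-Aa, H2-DMb1, C2, C5ar1, Cd3g, Kmo, Plac8, Slc1a3, Aldoc and Mag were named after their values were seen or to complete a short count. LPS, vehicle and other cohorts were not used here. Some items that the rule would name are not reported here.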

Additional observations from a re-analysis of the deposited data

Results flagged for a closer look

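The sdCAM minus MG difference was itself larger or smaller in repopulated than in untreated mice for 14 named values, by edgeR's test of the difference between cohorts. Against Ccr2-/- mice these were Ccr2, at a difference of 6.41 on the log2 scale, H2-Ab1 at 4.16, H2-Eb1 at 6.32 and Epor at 7.06, a fitted value that depends on the prior count because the repopulated MG held no count. Ccr2 is the gene disrupted in those mice, so its difference was fixed in advance. Against WT mice the higher ones were Cp at 6.24, Emb at 6.26, H2-Ab1 at 3.01, H2-Eb1 at 4.71 and Mrc1 at 4.15. Mrc1 encodes the sorting antigen and is no finding here. The lower ones against WT mice were Lag3 at -6.43, Lars2 at -7.62, Mir6236 at -7.77, Rn18s at -5.85 and Sparc at -3.76. H2-Ab1 and H2-Eb1 passed against both cohorts, which share the 9 repopulated libraries. The differences of H2-Eb1 and Emb come in part from the low MG levels given above. Depletion, genotype, tamoxifen and batch cannot be told apart in either comparison, and the WT sdCAM libraries also differed in depth and in Rn18s, Lars2 and Mir6236.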

How the results depend on the processing

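Counts of called genes moved with the test, with the treatment of the animals and with single libraries, and the cause was not tested unless the fit itself had fewer libraries. The sdCAM minus MG count of 926 stayed between 874 and 955 under DESeq2 size factors, a robust prior, no fold limit, other low-count filters and without the gene classes the study removed. It was 2156 by DESeq2, 1577 by limma voom with library quality weights and 73 with tdT+ and tdT- counts summed per mouse, which leaves 3 libraries against 3. For tdT+ sdCAMs DESeq2 called 1990 genes and voom 1328, for tdT- sdCAMs 1681 and 1122, and between them DESeq2 called 92. The paired analysis with the mouse as a block was the reported one. Without the block 1256 genes were called for sdCAMs, 1058 for tdT+, 848 for tdT- and 0 between them. For the difference from WT mice the count of 77 became 436 without the block, 119 with DESeq2 size factors, 1077 by DESeq2's own test, 283 without a low-count filter and 144 under the study's filter. For the difference from Ccr2-/- mice the count of 4 became 39 without the block, 264 by DESeq2 and 8 without a filter.

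Leaving out 1 library or 1 mouse gave 121 to 1372 calls for sdCAM minus MG, 66 to 1356 for tdT+, 55 to 1096 for tdT-, 0 to 25 between tdT+ and tdT-, 8 to 382 against WT and 1 to 43 against Ccr2-/- mice. For tdT+ the MG library of mouse 175 gave the highest count and mouse 174 as a whole the lowest, and the same held for tdT-.

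Over 160 values of named genes and up to 34 settings each, 3019 of 3497 kept direction and side of the threshold, 402 lost the call, 62 gained it and 14 turned direction. Most losses came from summing per mouse (79) and from leaving out mouse 174 (65) or 177 (58), fits with fewer libraries. The turned values were all of genes that had not passed. Leaving out a library or a mouse gave C1qa -0.48 to 0.05, Cd14 -0.45 to 0, Fcgr3 -0.02 to 0.09, Lars2 -0.91 to 0.02 and Slc40a1 -0.79 to 0.58. Voom gave Fcgr3 -0.02, and summing per mouse gave Slc40a1 0.6. Genes at or below 0.28 to 0.35 CPM in a library could not be told from absent at this depth.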

Other observations

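Genes that mark microglia in disease models did not share 1 direction between the populations at rest. Of 27 tested, 11 were higher and 5 lower in sdCAMs, and 11 and 4 without the MG library of mouse 175. Apoe, Ctsb and Cd63 were the higher genes with the smallest adjusted p, and Cd9, Ctsd and Ctsl the lower. Ctsl, cathepsin L, was at 1412, 1410 and 1365 CPM in MG and at 400.5 to 723 CPM (median 492) in sdCAMs (log2 fold change -1.47 ± 0.15, adjusted p = 0.00211, edgeR), and the other 5 genes are described above.

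Of 16 growth factor genes tested, 5 were higher and 2 lower, and 5 and 2 of 18 without the MG library of mouse 175. Gas6, a ligand of the TAM receptors, was at 119, 186 and 124 CPM in MG and at 1260 to 1658 CPM (median 1405) in sdCAMs (log2 fold change 3.36 ± 0.20, adjusted p = 0.000243). Pdgfc, a platelet-derived growth factor, was at 0 in all 3 MG libraries and at 4.40 to 29.2 CPM (median 15.8) in sdCAMs, at least 55.3-fold higher (adjusted p = 0.0204). Its relative Pdgfb was lower, at 107, 219 and 117 CPM against 19.4 to 34.9 CPM (median 28.9) (log2 fold change -2.42 ± 0.32, adjusted p = 0.00536), and so was Sema4d, a semaphorin, at 498, 466 and 601 CPM against 144 to 246 CPM (median 226) (log2 fold change -1.31 ± 0.17, adjusted p = 0.00551). The 6 sdCAM and 3 MG libraries did not overlap for Gas6, Pdgfb and Sema4d. Of all 11600 genes tested, 1390 were separated in this way with sdCAMs higher and 1020 with sdCAMs lower.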
